A study of Homo sapiens with 6 samples.

Results

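The ankyrin-spectrin skeleton was examined through 9 listed genes of 27257 genes with a line in at least 1 library: the ankyrins ANK1, ANK2 and ANK3, the spectrins SPTB, SPTAN1 and SPTBN1, and EPB41, EPB42 and ADD1. The list was drawn up around ANK1, which was chosen by its measured difference between the 2 groups below, so its values, their intervals and its place among the called genes are a description and not a test of ANK1. The genes were found by symbol and by Entrez gene ID. Of the 9 genes, 7 had enough counts to be tested, SPTB was below the filter on low counts, and EPB42 had no line in any library.

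The cells were U87MG, an established human glioblastoma line, grown in the same DMEM medium with serum and antibiotics. The infection lasted 24 h and used either a control lentivirus (3 libraries, named U87MG-control) or a lentivirus for LMO2 (3 libraries, named U87MG-LMO2), and total RNA was sequenced. The study's methods describe LMO2 in a lentiviral vector with a CMV promoter. The insert of the control virus in these libraries is not given in the sources used here. No label says whether the libraries came from separate cultures, so p values measure only the spread between these libraries. LMO2, a LIM-domain adaptor of transcription factor complexes, had 7, 11 and 5 expected counts in U87MG-control and 5459, 4503 and 14570 in U87MG-LMO2.

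The controls held 11428432 to 13537284 expected counts in all and the U87MG-LMO2 libraries 14630627 to 17892955, which makes the latter deeper. In all, 134 genes had damaged values, 129 of them without a line in U87MG-LMO2 replicate 3, and none of the 134 was among the 9. Without U87MG-LMO2 replicate 3 the test called 1307 genes higher in place of 760, and 1102 lower in place of 443. Of 14 glioma and astrocyte markers, 8 were tested, 5 were below the filter and GFAP could not be used because its line was damaged. VIM, CD44 and EGFR were high in both groups, whereas S100B, SOX2 and AQP4 were near 0. The only called marker of the 8 was SOX9, a glial transcription factor, beside 7.48% of all tested genes called. Its level was 4.96, 4.08 and 4.45 FPKM in U87MG-control and 1.41, 1.28 and 1.99 FPKM in U87MG-LMO2. SOX9 fell by 1.47 on the log2 scale (SE 0.21, edgeR adjusted p = 0.00918), and its part in the level of ANK1 was not tested. In these bulk libraries, fewer cells of a type and less RNA per cell cannot be told apart.

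Ankyrins are adaptor proteins that tie membrane channels, transporters and adhesion molecules to a flexible net of spectrin. Spectrin is built from alpha and beta chains, and its ends are held on short actin filaments by protein 4.1 and adducin. ANK1, SPTB and EPB42 (protein 4.2) are best known from red blood cells, where loss of any of them can cause hereditary spherocytosis. ANK2, ANK3, SPTAN1, SPTBN1, EPB41 and ADD1 are used in many other cell types, neurons and glia among them. In red cell precursors LMO2 works in a complex with TAL1, GATA1 and LDB1 that binds E-box and GATA sites.

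The promoters of the 2 red cell partners of ANK1 are shown because these genes had almost no reads in either group. The windows are the 250 bases before the start of the gene (RefSeq, GRCh38.p14), both on the minus strand and written 5′ to 3′. Capitals mark GATA words (the letters AGATAA or AGATAG, or the same with T as first letter) and the E-box word CAGGTG, each searched on both strands. The words do not overlap in these windows.
SPTB, chr14:64879908-64880157: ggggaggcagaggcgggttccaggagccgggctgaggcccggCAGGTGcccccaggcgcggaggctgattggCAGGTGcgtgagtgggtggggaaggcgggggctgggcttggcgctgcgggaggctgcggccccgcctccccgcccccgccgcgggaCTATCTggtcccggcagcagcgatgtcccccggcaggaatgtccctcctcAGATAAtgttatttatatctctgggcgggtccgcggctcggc
EPB42, chr15:43221019-43221268: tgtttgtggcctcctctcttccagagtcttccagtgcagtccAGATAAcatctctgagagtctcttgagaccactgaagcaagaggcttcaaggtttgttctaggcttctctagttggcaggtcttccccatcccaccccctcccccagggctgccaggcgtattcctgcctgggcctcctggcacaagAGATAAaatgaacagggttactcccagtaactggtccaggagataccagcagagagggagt
The SPTB window held 2 GATA words and 2 CAGGTG words, and the EPB42 window held 2 GATA words. In the first listed window of each gene, 8 of the 9 genes had an entry, and ANK1 was the one without, so the counts of words do not cover it. A GATA word was found in 4 of the 8 (ANK2, SPTB, EPB41 and EPB42), against 22.9% of 27305 windows of the same length. CAGGTG was found in 2 (SPTB and EPB41), against 17.5% of all windows. The E-box words CAGCTG and CATCTG, held by 13.8% and 12.2% of all windows, were in 0 of the 8. A match is a description of letters and not a binding site.

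ANK1 (286) encodes ankyrin-R, the ankyrin of the red cell membrane. Its expected counts were 168, 236 and 252 in U87MG-control replicates 1 to 3, and 1256, 801 and 1368 in U87MG-LMO2 replicates 1 to 3. Per length, its level was 2.40, 2.74 and 3.07 FPKM in U87MG-control. In U87MG-LMO2 the level was 11.7, 8.13 and 11.6 FPKM. The groups did not overlap, and the lowest U87MG-LMO2 library, replicate 2, was still above the highest control. Mean normalised read counts were 17.0 CPM for the controls and 71.2 CPM for U87MG-LMO2, a 4.19-fold difference with a 95% interval of 3.17 to 5.55. On the log2 scale the difference was 2.07 with an SE of 0.18. By size of the log2 fold change, ANK1 stood at place 55 of 16092 tested genes and at place 48 of the 760 genes called higher. Among the 693 of these with a control mean of at least 1 CPM it stood at place 21, so it was among the larger changes but not at the top. LMO2 itself was at 333, 307 and 878 CPM in U87MG-LMO2 replicates 1 to 3, against 76.6, 54.6 and 82.4 CPM of ANK1 in the same libraries.

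**Figure D1:**
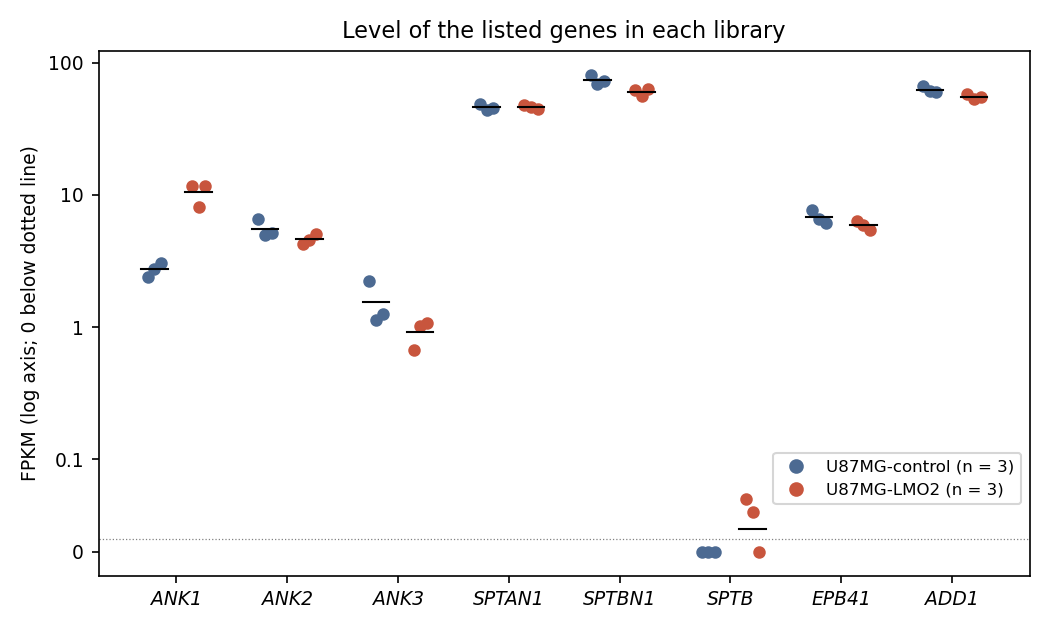
Level in FPKM (log axis, values of 0 under the dotted line) of 8 listed genes in each library, with points for libraries (n = 3 in each group) and bars for group means. ANK1 is at 2.40 to 3.07 FPKM in U87MG-control and at 8.13 to 11.7 FPKM in U87MG-LMO2, while SPTB is at or near 0 throughout. EPB42 had no line in any library and is not drawn.

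ANK2 (287) encodes ankyrin-B, which holds ion transporters and the inositol trisphosphate receptor in place. It was at 6.58, 4.94 and 5.19 FPKM in U87MG-control and at 4.26, 4.60 and 5.05 FPKM in U87MG-LMO2. The groups overlapped, and the log2 fold change was -0.19 (SE 0.14, 95% interval -0.52 to 0.14). ANK3 (288) encodes ankyrin-G, known from the axon initial segment and from lateral membranes of epithelia. Its level was 2.22, 1.14 and 1.26 FPKM in U87MG-control and 0.67, 1.02 and 1.07 FPKM in U87MG-LMO2. Every U87MG-LMO2 library was below every control, but U87MG-control replicate 1 was far above the other controls. The log2 fold change of ANK3 was -0.72 (SE 0.29, 95% interval -1.38 to -0.059), and the gene was not called.

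The make-up of the ankyrin pool differed in the 2 groups. ANK1 was 21.4%, 31.1% and 32.2% of the summed ankyrin FPKM in the U87MG-control libraries and 70.4%, 59.1% and 65.5% in the U87MG-LMO2 libraries. Its mean share was 28.2% ± 5.93 (SD, n = 3) in U87MG-control and 65.0% ± 5.64 (SD, n = 3) in U87MG-LMO2. ANK2 was the most abundant ankyrin in each U87MG-control library, with a mean share of 56.4% ± 2.15 (SD, n = 3), and ANK1 was the most abundant in each U87MG-LMO2 library. The share of ANK2 was 29.2% ± 3.97 (SD, n = 3) in U87MG-LMO2. ANK3 made up 15.3% ± 3.90 (SD, n = 3) and 5.83% ± 1.71 (SD, n = 3). The sum of the 3 ankyrins was 9.85 ± 1.22 FPKM (SD, n = 3) in U87MG-control and 16.0 ± 2.06 FPKM (SD, n = 3) in U87MG-LMO2. These shares rest on the same contrast that chose ANK1 and are a description.

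**Figure D2:**
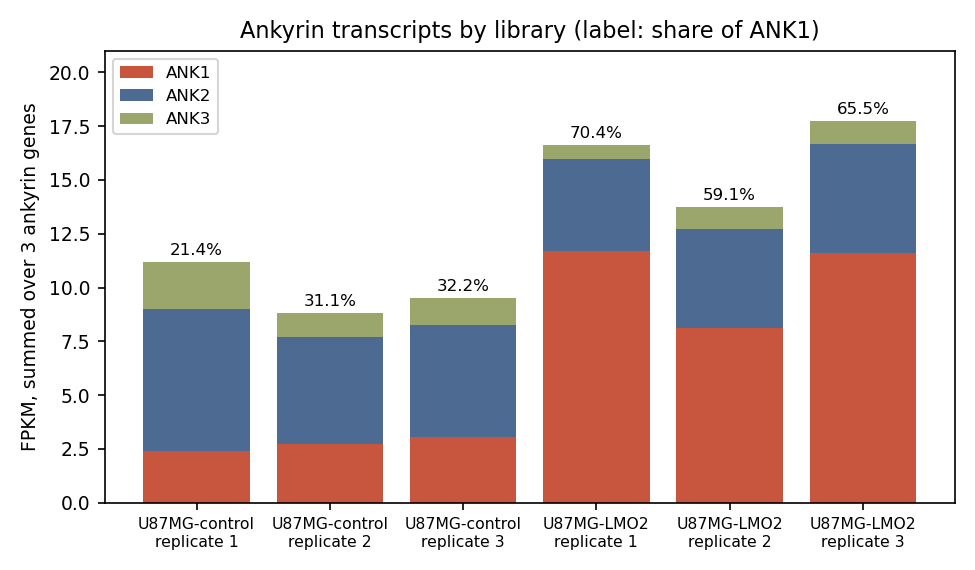
FPKM of ANK1, ANK2 and ANK3 stacked in each of the 6 libraries, with the share of ANK1 written above each bar. The share is 21.4% to 32.2% in U87MG-control and 59.1% to 70.4% in U87MG-LMO2, and the bars of ANK2 and ANK3 do not grow.

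None of the listed spectrins was called with all 6 libraries. SPTAN1 (6709), the alpha chain outside red cells, was at 49.0, 43.6 and 45.1 FPKM in U87MG-control and at 48.3, 46.0 and 44.3 FPKM in U87MG-LMO2. Its log2 fold change was 0.05 (SE 0.092, 95% interval -0.16 to 0.26), and the groups overlapped. SPTBN1 (6711), the widely expressed beta chain, was at 81.3, 69.1 and 72.2 FPKM in U87MG-control and at 62.1, 55.6 and 63.6 FPKM in U87MG-LMO2. In FPKM each U87MG-LMO2 library was below each control, whereas the log2 fold change on the count scale was -0.25 (SE 0.12, 95% interval -0.51 to 0.014) and was not called. Without U87MG-LMO2 replicate 3, SPTBN1 was called lower, at a log2 fold change of -0.33. The ratio of SPTAN1 to SPTBN1 in FPKM was 0.620 ± 0.0150 (SD, n = 3) in U87MG-control and 0.767 ± 0.0651 (SD, n = 3) in U87MG-LMO2. SPTB (6710), the red cell beta chain and the usual partner of ankyrin-R, had no line in the 3 controls and in U87MG-LMO2 replicate 3. It had 6 and 4 counts in U87MG-LMO2 replicates 1 and 2 (0.05 and 0.04 FPKM). A count of 0 allows up to 3 counts in a library, so a difference of SPTB was not detectable at this depth. For each 100 FPKM of SPTBN1 there were 3.72 ± 0.683 FPKM of ANK1 (SD, n = 3) in U87MG-control and 17.3 ± 2.31 FPKM (SD, n = 3) in U87MG-LMO2.

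The 2 genes of the actin junction that were tested had intervals that included 0. EPB41 (2035) encodes protein 4.1R, which joins spectrin to actin and to membrane proteins. It was at 7.68, 6.59 and 6.09 FPKM in U87MG-control and at 6.34, 5.89 and 5.41 FPKM in U87MG-LMO2. The groups overlapped, and the log2 fold change was -0.17 (SE 0.12, 95% interval -0.44 to 0.094). ADD1 (118) encodes alpha-adducin, which caps actin filaments and recruits spectrin to them. Its level was 66.1, 61.3 and 60.1 FPKM in U87MG-control and 57.7, 53.0 and 55.3 FPKM in U87MG-LMO2, without overlap in FPKM. On the count scale the log2 fold change was -0.10 (SE 0.097, 95% interval -0.32 to 0.12), and the CPM values overlapped. EPB42 (2038), which links ankyrin to the anion exchanger of red cells, had no line in any of the 6 libraries.

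Beside ANK1, which this contrast chose for being higher, 0 of the other 6 listed genes tested were called in either direction by edgeR at an adjusted p under 0.05 or by DESeq2. Of the 6, only ANK3 had an unadjusted edgeR p under 0.05. The share of all tested genes at that unadjusted threshold is not given here, so nothing is read from it. Over all 16092 tested genes, 7.48% were called, 4.72% higher and 2.75% lower, and nothing is read from the count because this contrast was known when the list was drawn up. In CPM, the groups did not overlap for 2 of the 7 genes, ANK1 and ANK3, against 34.1% of all tested genes in either direction and 16.6% in the direction of ANK3. The median log2 fold change of the 6 genes other than ANK1 was -0.18, beside -0.011 over all tested genes. The intervals of these 6 genes end at 0.26 or lower, so on this scale a change of the size seen for ANK1 was outside the interval of each. For SPTB and EPB42 no such interval can be given.

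The order of the levels in FPKM also changed in the place of ANK1. In U87MG-control it ran SPTBN1, ADD1, SPTAN1, EPB41, ANK2, ANK1, ANK3 and SPTB, and only EPB41 and ANK2 overlapped among neighbours. In U87MG-LMO2 it ran SPTBN1, ADD1, SPTAN1, ANK1, EPB41, ANK2, ANK3 and SPTB, and only SPTBN1 and ADD1 overlapped. ANK1 stood below EPB41 and ANK2 in the first group and above both in the second.

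**Figure D3:**
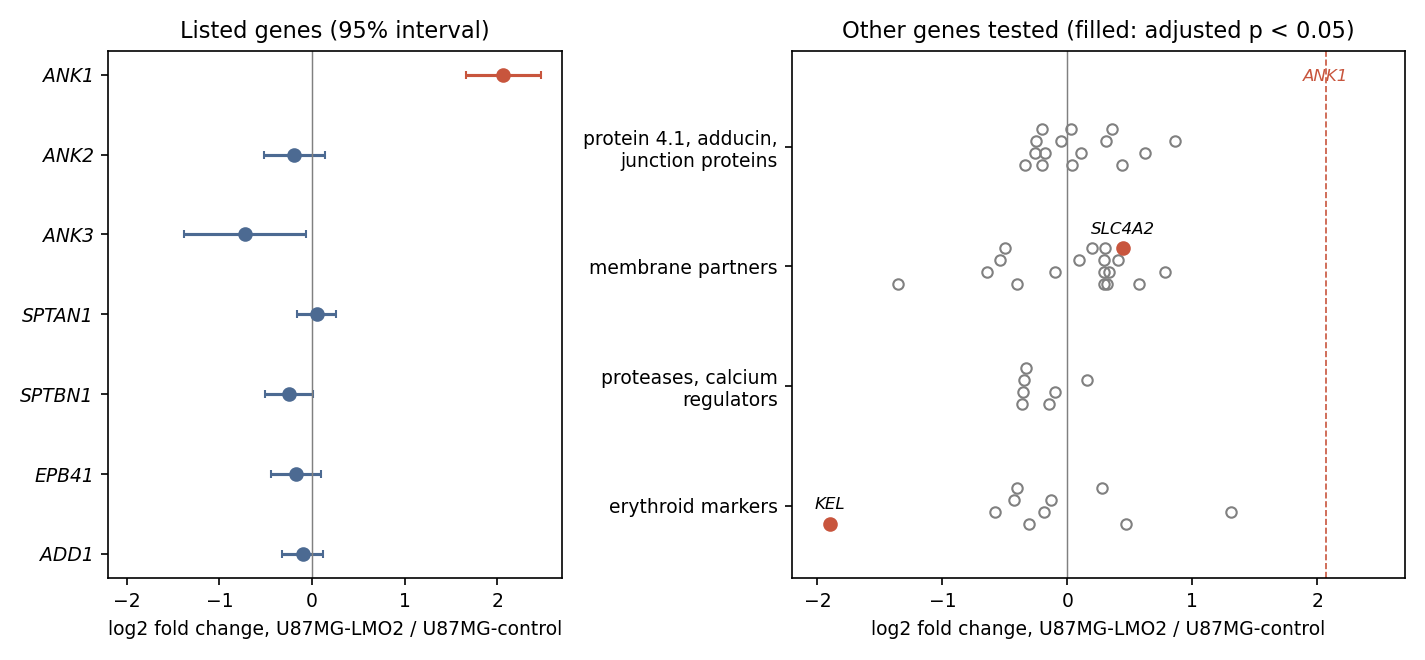
Left, log2 fold change of U87MG-LMO2 over U87MG-control with its 95% interval for the 7 listed genes tested (n = 3 libraries in each group). Right, log2 fold changes of other skeleton genes in 3 groups (15, 18 and 7 genes tested) and of 10 erythroid markers, filled where the edgeR adjusted p was under 0.05, with the value of ANK1 (2.07) as a dashed line. SLC4A2 and KEL are the filled points, and none of the points lies as high as ANK1.

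A list of 54 other genes of the same skeleton was compared in the same way. It held 4 further spectrin chains, 19 protein 4.1 relatives, adducins and junction proteins, 24 membrane partners and 7 proteases and calcium regulators. Of the 54, 2 had no line, 10 were below the filter and 42 were tested. By edgeR 2 were called higher and 0 lower, beside 4.72% and 2.75% of all tested genes. DESeq2 called 5 of the list in all, but it also called more genes overall than edgeR, 1006 higher and 691 lower. The median log2 fold change of the 42 genes was 0.03, and the values ran from -1.36 to 0.86. Of the 2 called genes, SLC4A2 is described here. SLC4A2, a chloride-bicarbonate exchanger related to the red cell anion exchanger, was at 77.8, 85.4 and 86.4 FPKM in U87MG-control and at 108.0, 100.2 and 105.6 FPKM in U87MG-LMO2. It rose by 0.45 on the log2 scale (SE 0.097, edgeR adjusted p = 0.0312). SLC4A2 was higher in each U87MG-LMO2 library than in each control, but its call was lost with the replicate block (adjusted p = 0.0776), in both limma fits, and without any 1 of the controls or U87MG-LMO2 replicate 1.

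The members of this list named next did not pass the test. SLC4A1, the red cell anion exchanger to which ankyrin-R binds, was at 0.293 ± 0.111 FPKM (SD, n = 3) in U87MG-control and 0.223 ± 0.0351 FPKM (SD, n = 3) in U87MG-LMO2, with an edgeR adjusted p of 0.466. Among the more abundant partners, CD44, a hyaluronan receptor that binds ankyrin, had a log2 fold change of 0.20 (SE 0.11, edgeR adjusted p = 0.292). ACTB, the cytoplasmic actin, had 0.44 (SE 0.15, edgeR adjusted p = 0.105). CAPN2, a calcium-dependent protease that cleaves spectrin, had -0.35 (SE 0.10, edgeR adjusted p = 0.0710). The genes at the ends of the range were named after their values were seen. ITPR1, a calcium release channel that binds ankyrin, was at 31.2, 15.1 and 14.9 FPKM in U87MG-control and at 6.01, 5.69 and 12.5 FPKM in U87MG-LMO2, with an edgeR adjusted p of 0.0589. EPB41L4A, a distant protein 4.1 relative, had an edgeR adjusted p of 0.0795.

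ANK1 was then set beside 36 markers of the erythroid line. Of these, 12 had no line in any library, 14 were below the filter and 10 were tested. The defining genes HBB, KLF1 and GATA1 had no line, and TAL1 had at most 2 counts in a library. By edgeR 0 of the 10 were called higher and 1 was called lower, beside 4.72% and 2.75% of all tested genes. An unadjusted edgeR p under 0.05 was found for 4, with KEL and TRIM58 lower and NFE2 and ERMAP higher. The share of all tested genes at that unadjusted threshold is not given here, so nothing is read from the 4. KEL, which encodes the Kell blood group protein, had 13, 15 and 15 counts in U87MG-control and 7, 5 and 2 counts in U87MG-LMO2. It fell by 1.90 on the log2 scale (SE 0.41, edgeR adjusted p = 0.0330), on few reads. No erythroid gene was called with the replicate block (count 0) or without any 1 of the controls or U87MG-LMO2 replicate 1. The erythroid genes with at least 1 FPKM in a group were RHD, RHCE, ERMAP, NFE2, EPOR and TFRC, several of which are used outside the erythroid line. NFE2, a subunit of an erythroid transcription factor, was at 1.31, 1.06 and 1.00 FPKM in U87MG-control and at 2.51, 1.21 and 3.82 FPKM in U87MG-LMO2, with an edgeR adjusted p of 0.0945. ERMAP, an erythroid membrane protein, was at 1.79, 1.75 and 1.88 FPKM against 2.37, 2.48 and 2.32 FPKM, with an edgeR adjusted p of 0.0846. RHD, RHCE, EPOR and TFRC had log2 fold changes between -0.31 and 0.27. The summed level of the list was 88.8 to 109 FPKM in U87MG-control and 74.3 to 99.2 FPKM in U87MG-LMO2, so the ranges overlapped. The sum was mostly TFRC (means of 53.4 and 51.0 FPKM) and RHCE (27.2 and 23.3 FPKM), so it says little about the other markers.

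Markers of other cell types were summed in the same way. Skeletal muscle, which uses short forms of ANK1, had 12 markers, 6 of them with no line and 0 at 1 FPKM or more. Their sum was 0.26 to 0.27 FPKM in U87MG-control and 0.36 to 0.54 FPKM in U87MG-LMO2, and the only muscle marker tested was not called. The 8 endothelial markers summed to 2.36 to 2.41 FPKM and 1.98 to 2.22 FPKM. The 8 leukocyte markers summed to 222 to 292 FPKM and 170 to 296 FPKM, mostly CD68, which was not called. Of the 3 leukocyte markers tested, 1 was called: CSF1R, a receptor of macrophages, was at 1.91, 1.95 and 1.59 FPKM in U87MG-control and at 2.60, 3.40 and 3.23 FPKM in U87MG-LMO2 (log2 fold change 0.81, SE 0.18, edgeR adjusted p = 0.0325). None of the 4 endothelial and 5 neuron markers tested was called. Over all tested genes 7.48% were called, and with so few markers nothing is read from these counts. The 8 neuron markers summed to 198 to 238 FPKM and 251 to 368 FPKM, mostly TUBB3. Among the 5 tested, the log2 fold change was 0.49 for TUBB3, 0.0036 for SYP, -0.0014 for SNAP25, -0.43 for NEFM and -1.03 for MAP2. The sums of muscle and neuron markers and the level of CSF1R were higher in each U87MG-LMO2 library than in each control. The endothelial sum was lower in each, and the leukocyte sums overlapped. The part of these markers in the level of ANK1 was not tested.

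Each library also has an average transcript length for each gene. It comes from the same libraries and contrast as the values that chose ANK1, so it is a description and not separate support. In the layout that RSEM writes, this is the mean length of the transcripts of a gene weighted by their estimated abundance, although the sources used here do not define it. For ANK1 it was 6055, 6278 and 6193 bases in U87MG-control and 6558, 6645 and 6477 bases in U87MG-LMO2. The mean was 6176 ± 113 bases (SD, n = 3) and 6560 ± 84.0 bases (SD, n = 3), 384 bases or 6.22% longer in U87MG-LMO2. The groups did not overlap, and a two-sided exact permutation test gave p = 0.1, the smallest that 3 libraries against 3 allow (0.233 after Benjamini-Hochberg adjustment over the 7 listed genes). Of 11787 tested genes with several listed transcripts and a length in every library, 5.30% had a relative increase at least as large. In the GENCODE v29 annotation, 6 ANK1 transcripts had a RefSeq match. These fall into long ones of 8237 to 8478 bases and short ones of 622 to 1185 bases, and the gene averages lie between them. Lengths of the other listed transcripts were not used. The authors' tables list 27 RefSeq transcripts of ANK1 without a value for each.

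Among the other listed genes, ANK2 was longer by 131 bases (1.54%) and ADD1 by 87.6 bases (2.25%) without overlap of the groups, each with an exact permutation p of 0.1. For ANK3, SPTAN1, SPTBN1 and EPB41 the groups overlapped. In all, 3 of the 7 had groups that did not overlap, all in the longer direction, against 15.8% of all compared genes in either direction and 8.70% in the longer direction. Every U87MG-LMO2 library was also deeper than every control, and the part of depth in these lengths was not tested.

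**Figure D4:**
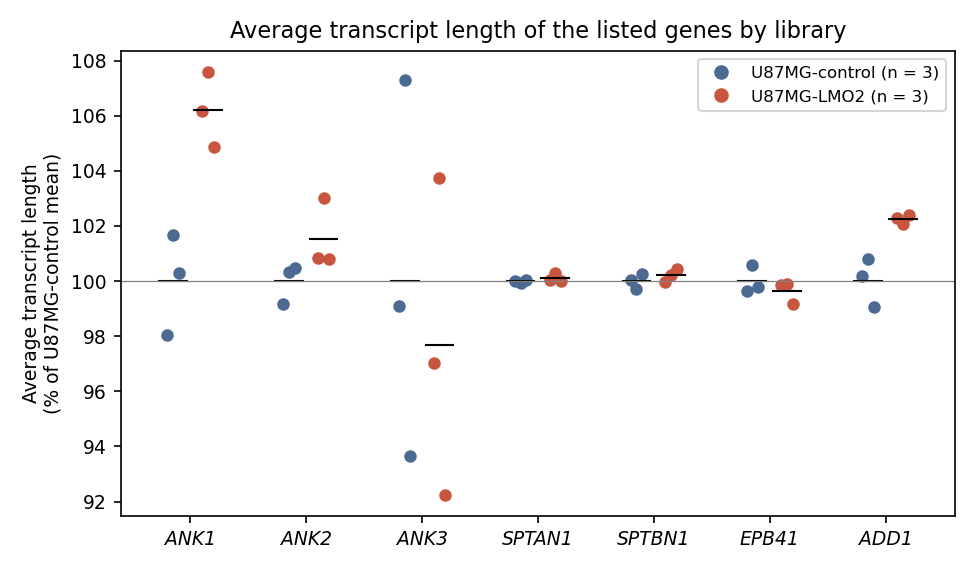
Average transcript length of the 7 listed genes tested in each library, as a percentage of the U87MG-control mean of the gene, with bars for group means (n = 3). ANK1 is 6.22% longer in U87MG-LMO2 with no overlap of the groups, ANK2 and ADD1 differ by 1.54% and 2.25%, and ANK3 has the widest spread among libraries.

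The genes with the profile most like that of ANK1 over the 6 libraries were sought among 15225 genes with a mean of at least 1 CPM. Likeness was measured as the root-mean-square difference of log2 CPM after the mean of each gene was removed. The 5 nearest were CRYAB (0.186), LOC105371409 (0.191), FIBCD1 (0.222), CCN4 (0.224) and ACTC1 (0.24). CRYAB encodes a small heat shock protein and ACTC1 the cardiac alpha-actin. None of the 5 was on the skeleton or erythroid lists. The likeness mainly reflects the group difference, since the log2 fold changes of the 5 genes were 1.86 to 2.49, and it is a description over 6 libraries that share their depth and group.

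**Figure D5:**
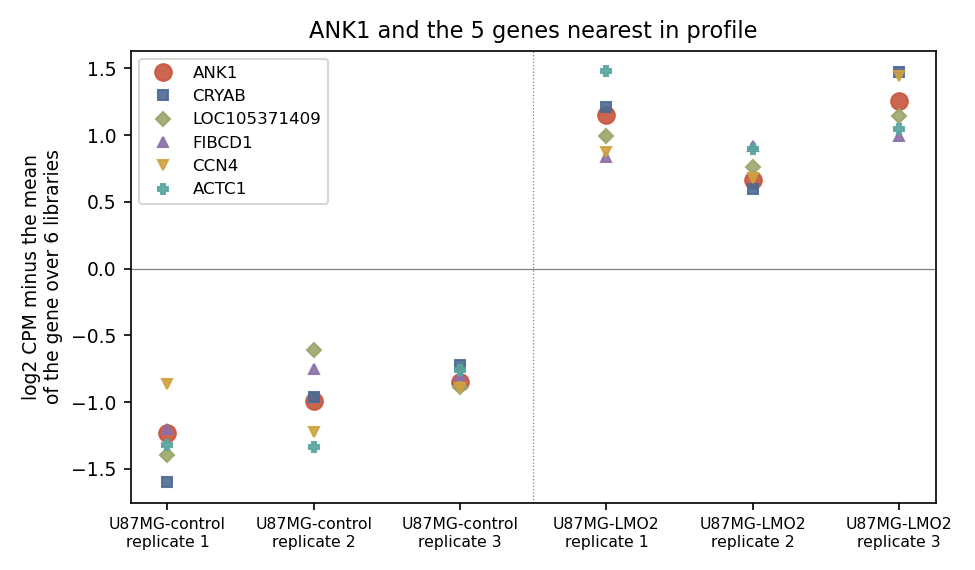
log2 CPM minus the mean of the gene over the 6 libraries for ANK1 and the 5 genes nearest to it in profile. All 6 genes lie below 0 in the 3 U87MG-control libraries and above 0 in the 3 U87MG-LMO2 libraries, and ANK1 is lower in U87MG-LMO2 replicate 2 than in replicates 1 and 3.

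The genes beside ANK1 on its chromosome were taken from the same fit. Of the 6 protein-coding genes on each side in the RefSeq gene order (GRCh38.p14), 9 of the 12 were tested. Their log2 fold changes ran from -0.64 for PLAT to 0.014 for GPAT4, with a median of -0.22. By edgeR 0 of the 9 were called, beside 7.48% of all tested genes, and with so few genes nothing is read from this count. KAT6A, next to ANK1 on one side, had mean values of 96.5 CPM among the controls and 95.9 CPM with LMO2. NKX6-3, next to it on the other side, had no line in any library.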

How the data were processed

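RNA-seq of total RNA from 6 libraries was used, grouped by title (U87MG-control and U87MG-LMO2, n = 3 each, 24 h). Per the labels, a commercial sequencing centre prepared and ran the libraries. The submitters' processing notes name GRCh38.p12, Bowtie2 and BWA, and the counting program and its version are not given in the sources used here. For each library the authors deposited expected counts (estimated reads per gene, not normalized, need not be whole) and FPKM values (scaled to length and mapped reads, 2 decimals). Genes without a line were taken as 0, which allows up to 3 counts and covers counting error only. The authors' table of the comparison was used for symbols and group means, and its ratio and probability columns were not used. By these means (missing values as 0.01, tolerance 0.001 FPKM), 134 genes were damaged, 129 of them without a line in U87MG-LMO2 replicate 3, and were left out. The only listed or marker gene among them was GFAP. Symbols came from RefSeq (GRCh38.p14) and matched 89.6% of IDs.

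Expected counts were rounded and tested with edgeR 4.0.16 in R 4.3.3 (filterByExpr, TMM, glmQLFit and glmQLFTest, two-sided, Benjamini-Hochberg over 16092 genes, calls at an adjusted p under 0.05, CPM by TMM library size, prior count 2). The members and lists were chosen with earlier results of these data known. Genes named were the 9 listed genes, skeleton genes that were called or the most abundant of their group, erythroid genes that were called or had a mean of at least 1 FPKM in a group, LMO2, and the 5 nearest profiles. Some genes that this rule names are not reported here. Called markers of other cell types (SOX9 and CSF1R), the markers named beside them and TRIM58 were named after their values were seen. Alternatives were a block for the replicate number, DESeq2 1.42.0, the omission of each library, upper-quartile scaling, no filter, a minimum of 10 counts in all libraries, and limma 3.58.1 on log2(FPKM + 1 or 0.1). Permutation tests used scipy 1.17.1.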

Additional observations from a re-analysis of the deposited data

How the results depend on the processing

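The log2 fold change of ANK1, a description since this contrast chose the gene, ran from 1.61 to 2.23 over 13 alternatives (1.95 to 2.23 when 1 library was left out). The other 6 listed genes tested kept their sign in the 13, and none of them was called except SPTBN1 without U87MG-LMO2 replicate 3, so that the count of listed genes called, ANK1 included, ranged from 1 to 2. Of the skeleton list, DESeq2 called 5 genes, limma with either pseudocount (1 or 0.1 FPKM) 1, the replicate block 0, and leaving out a library 0 to 10, the 10 without U87MG-LMO2 replicate 3. SLC4A2 kept its direction in 13 alternatives and lost its call in 7. Of the erythroid list, 2 genes were called with no filter, 0 with at least 10 counts in every library, 0 with the replicate block, and 0 to 1 with a library left out. KEL, the gene called from it, had 2 to 15 counts per library. Over all genes, the replicate block called 387 higher and 189 lower, and DESeq2 1006 higher and 691 lower. Leaving out a library gave 102 to 1307 higher and 42 to 1102 lower. Leaving out a library leaves fewer samples, and the cause of the other shifts was not tested. The replicate numbers were not taken to pair the libraries, since deviations of same-numbered libraries correlated at -0.12, -0.003 and -0.041. Depth limits SPTB and the erythroid markers at a few counts, for which neither a change nor its absence can be shown. The authors' tables give no value per transcript, so the length of ANK1 cannot be assigned to single transcripts.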
